A study of Mus musculus with 23 samples.

Results

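Genes that rebuild membrane phospholipids, 10 in number, were followed in mouse liver. They are Tmem86a and Tmem86b, which encode lysoplasmalogenases, Lpcat1, Lpcat2, Lpcat3, Lpcat4, Mboat1, Mboat2 and Mboat7, which encode lysophospholipid acyltransferases, and Pemt, which encodes phosphatidylethanolamine N-methyltransferase. The 10 members, of 26522 genes listed in the deposited tables, were chosen by gene name, and Tmem86a was picked because its level was higher in LKO females. Its own differences are therefore given as a description, with no test. Of the 10 members, 8 passed the filter on low counts, and Mboat1 and Mboat2 did not.

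Bulk RNA was sequenced from 23 livers of male and female mice, 1 library per liver. The study asked how ablation of hepatic Cpt1a affects plasma cholesterol and liver gene expression. The control groups, labelled B100-Control, held 5 males (numbers 1, 2, 3, 4 and 6) and 6 females. The knockout groups, labelled B100-LKO and called LKO here, held 6 males and 6 females. Both genotypes carried B100, were fed the diet abbreviated as WD for 16 weeks and were necropsied fed, so none of these conditions varied between groups. The age of the animals, any further allele of the controls and the Cre line or vector behind the deletion are not given in the sources used here. Sex coincided with the deposited table, so a sex difference and a difference between tables cannot be told apart.

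Membrane phospholipids turn over in the Lands cycle, in which a phospholipase removes a fatty acyl chain and a lysophospholipid acyltransferase puts another in its place. The choice of acyltransferase helps to set how unsaturated the membrane is, and in hepatocytes this bears on lipoprotein assembly. Plasmalogens are ether phospholipids with a vinyl ether bond. Once they have lost an acyl chain, a lysoplasmalogenase can cleave that bond and release a fatty aldehyde. In liver, phosphatidylcholine is made from CDP-choline and, by Pemt, through methylation of phosphatidylethanolamine.

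The promoters of the lysoplasmalogenase pair are shown because their levels are set side by side in the results. Each line gives the 250 bases before the RefSeq transcription start in GRCm38.p6, 5′ to 3′ on the gene's strand. The Tmem86a window is chr7:47050390-47050639 on the plus strand and the Tmem86b window is chr7:4630483-4630732 on the minus strand. Capitals mark matches on either strand to the GC box GGGCGG and the CCAAT box CCAAT.
Tmem86a: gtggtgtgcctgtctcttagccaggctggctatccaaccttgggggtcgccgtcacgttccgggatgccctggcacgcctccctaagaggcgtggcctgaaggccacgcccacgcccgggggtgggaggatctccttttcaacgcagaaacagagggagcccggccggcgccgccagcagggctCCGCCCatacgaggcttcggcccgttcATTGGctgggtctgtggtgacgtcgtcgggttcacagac
Tmem86b: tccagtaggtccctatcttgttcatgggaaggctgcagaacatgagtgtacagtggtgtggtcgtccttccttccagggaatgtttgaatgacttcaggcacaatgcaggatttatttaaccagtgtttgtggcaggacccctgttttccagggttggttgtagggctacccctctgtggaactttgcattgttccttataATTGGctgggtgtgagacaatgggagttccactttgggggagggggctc

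The Tmem86a window held 1 GC box, 66 bases before the start, and 1 CCAAT box, 39 bases before it. The Tmem86b window held 1 CCAAT box, 49 bases before the start, and no GC box. GC content was 66.8% for Tmem86a and 50% for Tmem86b, against a median of 52.4% over 32851 windows of the same length. Of all windows, 32.74% held a GC box and 33.85% a CCAAT box. All 10 members matched RefSeq, with 11 windows in all since Pemt has 2. The Lpcat3 window held 5 GC boxes and 3 CCAAT boxes, and Lpcat2 was the only member with a TATA box (TATAAA, 12.37% of all windows), 126 bases before the start. The nuclear receptor half-site AGGTCA (14.02% of all windows), the E-box CACGTG (6.02%) and the sterol regulatory element core TCACNCCAC (1.05%) were in none of the 11 windows.

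Total counts ran from 14224665 to 19626662 per library, and libraries of 1 group correlated at r = 0.956 to 0.985 over genes. Control male number 4 stood apart, with the smallest total and 18232 genes detected, the fewest of all livers. The ablated gene Cpt1a, which encodes the gatekeeper of long-chain fatty acid entry into mitochondria, checked the labels. Its level in CPM (counts scaled by library size and TMM factors) was 387 ± 59.1 in control females (SD, n = 6) and 75.9 ± 8.87 in LKO females (n = 6). In males it was 357 ± 50.3 (n = 5) and 63 ± 20.2 (n = 6), and the genotypes did not overlap in either sex. The hepatocyte markers were abundant in every library, with a summed level of 54830 to 104687 CPM.

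Per gene length, the members spanned levels from above 100 FPKM (fragments scaled by gene length and library size, as deposited) to near 0. Pemt was the highest member in every liver, at a group mean of 232 FPKM in control females and 152 FPKM in LKO males. Lpcat3 followed with group means of 49.6 to 56.3 FPKM, and its range overlapped that of Tmem86b, whose group means were 37.7 to 51.9 FPKM. Tmem86a lay at 20.2 ± 2.07 FPKM in control females (range 16.9 to 22.1), entirely below Tmem86b (44.3 to 68.8). In the other 3 groups the ranges of Tmem86a and Tmem86b overlapped. Mboat7 stood alone in the middle, at 4.80 to 6.17 FPKM in all livers. Lpcat2 (0.649 to 2.13 FPKM), Lpcat4 (0.286 to 1.23 FPKM) and Lpcat1 (0.410 to 1.07 FPKM) overlapped one another. Mboat1 reached at most 0.262 FPKM and Mboat2 at most 0.0255 FPKM.

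**Figure D1:**
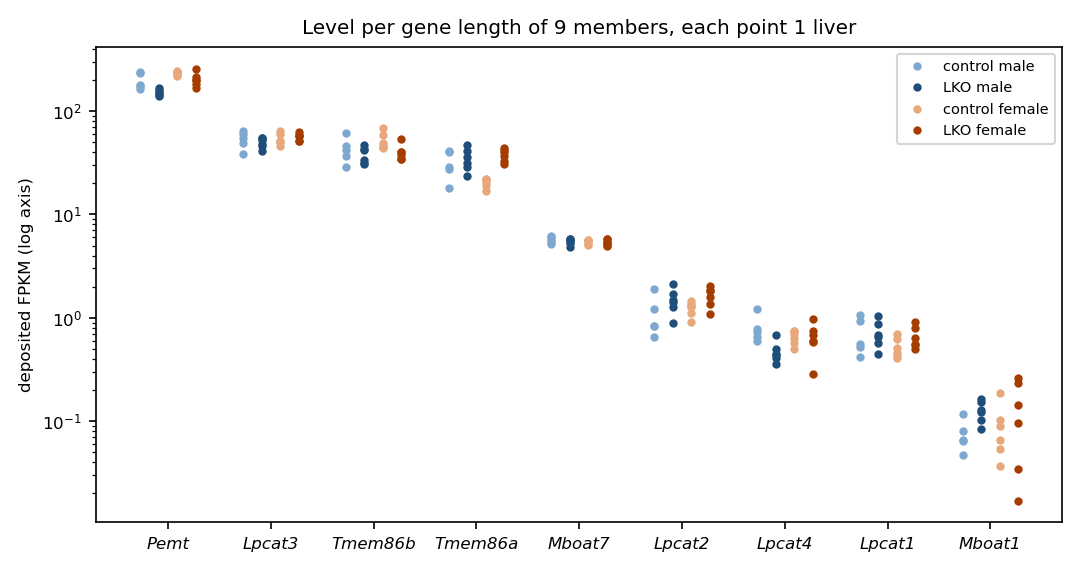
Deposited FPKM of 9 members on a log axis, each point 1 liver, coloured by sex and genotype. Mboat2 is left out because it is at 0 in many livers. Pemt lies above every other member in every group, and the Tmem86a points of control females (16.9 to 22.1 FPKM) lie below those of LKO females (30.8 to 43.5 FPKM).

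Tmem86a encodes an endoplasmic reticulum lysoplasmalogenase that is known as a target of the sterol receptor LXR in macrophages. In control females its lowest, median and highest levels were 32.1, 39.5 and 42.0 CPM. In LKO females they were 59.2, 73.3 and 82.9 CPM. All 6 LKO females lay above all 6 control females, with means of 38.4 ± 3.90 and 72.0 ± 9.66 CPM, a ratio of 1.87. The counts behind these levels were 479 to 689 in controls and 1030 to 1373 in LKO females. On the log2 scale the difference was 0.90 (SE 0.098), and it lay between 0.86 and 0.96 under all alternatives run.

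In males the level of Tmem86a varied more between livers. The 5 control males had 76.9, 52.4, 75.9, 33.6 and 54.5 CPM, in the order of their numbers. LKO males had a lowest, median and highest level of 45.1, 63.8 and 90.1 CPM. Only 2 of the 6 LKO males lay above all control males, and control male 4 was the lowest liver of its sex. The means were 58.6 ± 18.1 CPM in control males (n = 5) and 65.9 ± 16.5 CPM in LKO males (n = 6), a ratio of 1.12. This is a log2 difference of 0.16 (SE 0.22), and it was 0.017 without control male 4, 0.28 without control male 1 or 3, 0.25 without LKO male 1 and 0.061 without LKO male 3. Control females lay lower than most control males: only the value of male 4 fell within the female range. The log2 difference of control females from control males was -0.61 (SE 0.18), or -0.76 without control male 4 and -0.50 without control male 1. The difference of the genotype effects between the sexes was 0.74 on the log2 scale (SE 0.24). It shares its samples with the contrast that led to the choice of Tmem86a, so it has no test.

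Tmem86b encodes the other lysoplasmalogenase, which is known to be abundant in liver. Its lowest, median and highest levels were 85.4, 92.3 and 133 CPM in control females and 66.7, 75.3 and 104 CPM in LKO females. Of 6 LKO females, 5 lay below every control, and LKO female 1 lay among the controls at 104 CPM. The log2 difference of -0.37 (SE 0.13, 95% interval -0.65 to -0.088) had an unadjusted p of 0.0138 and did not pass edgeR's quasi-likelihood test after Benjamini-Hochberg adjustment over all genes (adjusted p = 0.183). Without LKO female 1 it was -0.47 (edgeR adjusted p = 0.0632).

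Control males had 71.3, 88.3, 55.5, 118 and 80.2 CPM of Tmem86b, and LKO males 58.6, 72.9 and 89.6 CPM at the lowest, median and highest. The male genotypes overlapped fully. The difference was -0.18 (SE 0.17, 95% interval -0.55 to 0.19, edgeR adjusted p = 0.717), and -0.024 without control male 4, whose Tmem86b level was the highest of its sex, or -0.29 without control male 3, whose level was the lowest. Control females did not pass the test against control males for Tmem86b (log2 difference 0.28, SE 0.17, edgeR adjusted p = 0.284), and without control male 4 the values were 0.44 and adjusted p = 0.0562. The genotype effects of the sexes differed by -0.19 (SE 0.23, edgeR adjusted p = 0.773), by -0.36 without control male 4 and by -0.074 without control male 3.

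The ratio of Tmem86a to Tmem86b, per gene length, describes the balance within the pair and is built on the gene that was picked. Its lowest, median and highest values were 0.287, 0.428 and 0.49 in control females and 0.738, 0.965 and 1.10 in LKO females. In control males they were 0.290, 0.691 and 1.39, and in LKO males 0.560, 0.997 and 1.51. The female genotypes were separate in this ratio and the male genotypes overlapped.

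**Figure D2:**
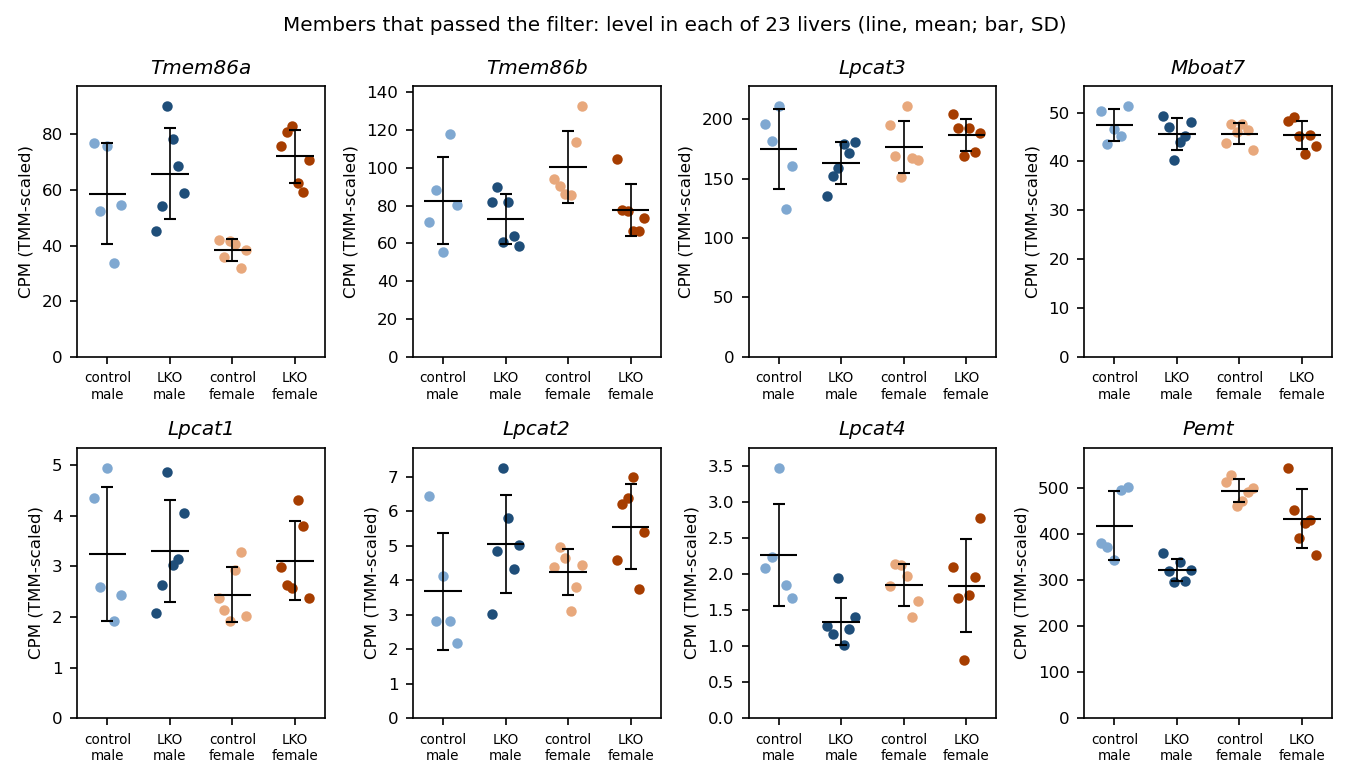
Level in CPM of the 8 members that passed the filter, each point 1 liver, with the group mean as a line and the SD as a bar, on axes that start at 0. The female genotypes of Tmem86a, which was picked for its rise in LKO females, do not overlap (32.1 to 42.0 against 59.2 to 82.9 CPM). The genotypes overlap in the other female panels and in all male panels. The share of all genes whose genotypes separate in this way was not computed.

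None of the 7 tested members other than Tmem86a passed the edgeR test in females, where 194 of 13684 genes did (1.42%, with 127 higher and 67 lower in LKO). None of the 7 passed in males, where 1 of 13805 genes did (0.00724%), that gene being Cpt1a. DESeq2 called 559 genes in females and 112 in males, and none of the 7. In males, however, DESeq2 gave no adjusted p for Lpcat1, Lpcat2 and Lpcat4, so it could not call them. At an unadjusted p under 0.05, 2 of the 7 members stood in females (Tmem86b and Lpcat2) and 2 in males (Lpcat4 and Pemt), against 15.6% and 12.5% of all genes. The members' median log2 difference was -0.0056 in females, with 3 higher and 4 lower, and -0.10 in males, with 2 higher and 5 lower. Over all genes tested the median was 0.0051 in females and 0.010 in males, with 51.1% and 52.1% of genes higher in LKO.

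**Figure D3:**
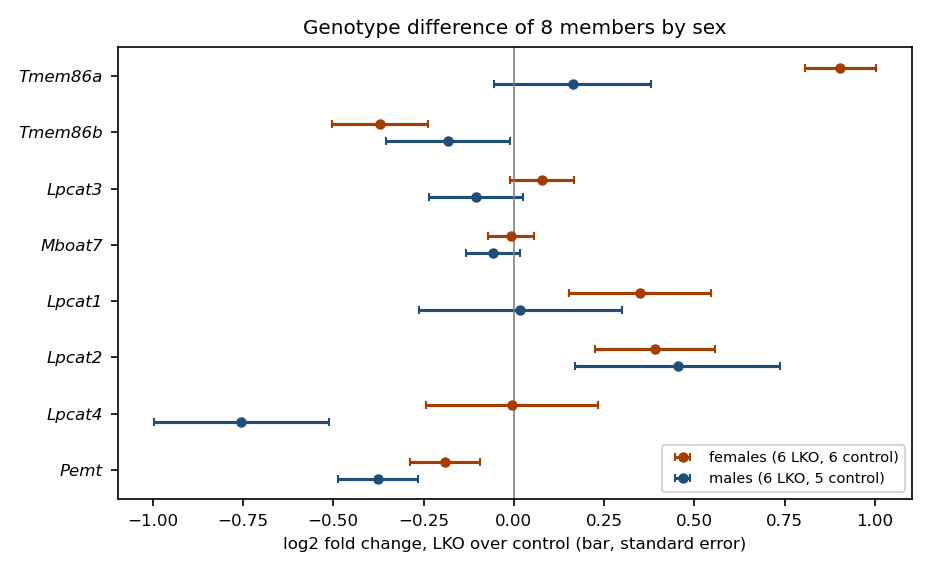
Log2 fold change of LKO over control for the 8 members that passed the filter, females and males fitted apart, with the standard error as a bar. Tmem86a in females (0.90) is the farthest from 0 and was picked for this. Lpcat4 (-0.75) and Pemt (-0.38) in males have the most negative male values and did not pass the test after adjustment.

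Lpcat3, an acyltransferase of the MBOAT family and a known LXR target, loads polyunsaturated chains onto phosphatidylcholine. It had the most abundant transcript of the 7 acyltransferases among the members. Lpcat3 made up 83.7% to 88.9% of the summed FPKM of these 7 in every liver. That share depends on the deposited gene lengths, which were 3268 bases for Lpcat3 and 8339 for Mboat7. Without scaling by length, the means in control females were 177 CPM for Lpcat3 and 45.7 CPM for Mboat7. Its lowest, median and highest levels were 151, 168 and 211 CPM in control females, and 169, 190.3 and 204 CPM in LKO females. Control males had 196, 181, 211, 125 and 160.3 CPM, and LKO males 135, 165 and 181 CPM at the lowest, median and highest. The genotypes overlapped in both sexes, and control male 4 was the lowest of all 23 livers. The log2 difference was 0.077 in females (SE 0.089, 95% interval -0.11 to 0.27, edgeR adjusted p = 0.740). In males it was -0.10 (SE 0.13, 95% interval -0.39 to 0.18, edgeR adjusted p = 0.805). Single livers moved these values: the male difference was -0.21 without control male 4 and -0.015 without control male 3, and the female difference was 0.13 without control female 4 and 0.038 without control female 3. The genotype effects of the sexes differed by 0.18 for Lpcat3 (SE 0.16, edgeR adjusted p = 0.658), and by 0.27 without control male 4.

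Mboat7, an MBOAT enzyme that places arachidonic acid on phosphatidylinositol and whose loss in mouse liver is known to favour fat accumulation, was the steadiest member. Its group means were 45.7 ± 2.11 CPM in control females and 45.4 ± 2.86 CPM in LKO females (n = 6 each). They were 47.4 ± 3.32 CPM in control males (n = 5) and 45.7 ± 3.24 CPM in LKO males (n = 6). All 23 livers lay between 40.4 and 51.3 CPM, and the coefficient of variation within a group was 4.62% to 7.09%. The log2 difference was -0.0092 in females (95% interval -0.15 to 0.13, edgeR adjusted p = 0.966). It was -0.057 in males (95% interval -0.22 to 0.10, edgeR adjusted p = 0.811). Mboat7 and Lpcat3 each overlap a neighbour on the opposite strand: Mboat7 by 661 bases with Tsen34 (up to 77.5 CPM) and Lpcat3 by 334 bases with Emg1 (up to 73.8 CPM). Strand use in counting is not given in the sources used here, so some of these reads may belong to the neighbour.

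Mboat1 and Mboat2 encode MBOAT enzymes that acylate lysophospholipids such as lysophosphatidylethanolamine, and both were near the limit of detection. Mboat1 had 2 to 12 counts per library in control females, 1 to 17 in LKO females, 3 to 7 in control males and 5 to 10 in LKO males. Mboat2 had 0 to 4 counts in every library, with 0 in 5 of 6 control females. Neither passed the filter, so neither was tested. For Mboat1 in males, the mean was 0.275 ± 0.0965 CPM in controls and 0.464 ± 0.110 CPM in LKO, with 4 of 6 LKO males above every control and 6 of 6 above the control mean. Of 6 LKO females, 2 lay above every control and 2 below every control for Mboat1.

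Lpcat1, Lpcat2 and Lpcat4 belong to the acyltransferase family of the AGPAT type. Lpcat1 is known for making dipalmitoyl phosphatidylcholine in lung, and Lpcat2 for making platelet-activating factor in inflammatory cells. Lpcat4 prefers lysophosphatidylethanolamine. They were counted 13 to 143 times per library, which limits their precision.

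Lpcat2 had lowest, median and highest levels of 3.12, 4.42 and 4.97 CPM in control females and 3.74, 5.81 and 7.01 CPM in LKO females. Of 6 LKO females, 4 lay above all controls. LKO females differed from controls by 0.39 on the log2 scale (SE 0.17, 95% interval 0.037 to 0.75), with an unadjusted p of 0.0327 and an edgeR adjusted p of 0.272. Control males had 6.44, 2.82, 4.13, 2.81 and 2.19 CPM and LKO males 3.02, 4.94 and 7.27 CPM at the lowest, median and highest. Control male 1 was higher than all but 1 LKO male, and the other 4 control males lay below the LKO median. The male log2 difference was 0.45 (SE 0.28, 95% interval -0.16 to 1.06, edgeR adjusted p = 0.537), and 0.76 without control male 1. On the log2(FPKM + 1) scale, which shrinks differences of low genes, the values for Lpcat2 were 0.22 in females and 0.26 in males. The Lpcat2 locus contains the small genes Capns2 and Gm45472, which had at most 0.113 and 0.251 CPM.

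Lpcat4 had 2.08, 2.23, 3.48, 1.85 and 1.68 CPM in the control males and 1.01, 1.26 and 1.95 CPM in LKO males at the lowest, median and highest. Of 6 LKO males, 5 lay below every control male, and all 6 lay below the control mean. The means were 2.26 ± 0.712 CPM (n = 5) and 1.34 ± 0.324 CPM (n = 6), so LKO males had 59.3% of the control level. The log2 difference of -0.75 (SE 0.24, 95% interval -1.28 to -0.23) had an unadjusted p of 0.00825 and did not pass after adjustment (edgeR adjusted p = 0.279). On the log2(FPKM + 1) scale the male difference of Lpcat4 was -0.28 (limma adjusted p = 0.272). In females the levels were 1.41, 1.90 and 2.14 CPM in controls and 0.815, 1.84 and 2.78 CPM in LKO, with a log2 difference of -0.0056 (95% interval -0.51 to 0.50, edgeR adjusted p = 0.996). The effects differed between the sexes by 0.75 (SE 0.34), with an unadjusted interaction p of 0.0375 and an edgeR adjusted p of 0.362.

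Lpcat1 ranged from 1.92 to 3.28 CPM in control females and from 2.37 to 4.31 CPM in LKO females, and 2 of 6 LKO females lay above all controls. The female difference was 0.35 on the log2 scale (SE 0.20, 95% interval -0.069 to 0.77, edgeR adjusted p = 0.417), 0.23 without LKO female 4, and 0.12 on the log2(FPKM + 1) scale. Males of both genotypes covered the same range, 1.93 to 4.95 CPM in controls and 2.08 to 4.87 CPM in LKO. Their log2 difference was 0.018 (95% interval -0.59 to 0.62, edgeR adjusted p = 0.988), which was -0.11 without control male 4 and 0.23 without control male 3.

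Pemt, the enzyme that methylates phosphatidylethanolamine to phosphatidylcholine with S-adenosylmethionine, had the highest counts of all members, 4823 to 9101 per library. Its levels in control males were 379, 372, 343, 494 and 500.5 CPM, and in LKO males 296, 320.0 and 358 CPM at the lowest, median and highest. Of 6 LKO males, 5 lay below every control male, and LKO male 1 lay above control male 3 alone. The means were 418 ± 73.8 CPM in control males and 322 ± 24 CPM in LKO males, or 77.1% of control. The log2 difference was -0.38 (SE 0.11, 95% interval -0.61 to -0.14), with an unadjusted p of 0.00439 and an edgeR adjusted p of 0.268. It was -0.31 without control male 4. The DESeq2 adjusted p was 0.0638, and the authors' deposited table lists an adjusted p of 0.0618 for Pemt in males.

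In females, Pemt ran from 461 to 526 CPM in controls, with a median of 495, and from 354 to 543 CPM in LKO, with a median of 427. Of 6 LKO females, 5 lay below every control, while LKO female 1 was the highest of all females. The means were 493 ± 24.6 and 432 ± 64.0 CPM (n = 6 each), or 87.7% of control. The log2 difference was -0.19 (SE 0.097, 95% interval -0.40 to 0.015, edgeR adjusted p = 0.359). The genotype effects of the sexes differed by 0.19 (SE 0.15, edgeR adjusted p = 0.620), and by 0.11 without control male 4 and 0.10 without control male 6 or LKO female 1. LKO female 1 was also the highest LKO female for Tmem86b.

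Across the sexes, no gene passed the interaction test in edgeR (0 of 14503, 0%), while 1874 genes had an unadjusted p under 0.05 and DESeq2 called 96. Among the 7 members, only Lpcat4 had an unadjusted interaction p under 0.05. In controls, 2465 of 13699 genes (18%) differed between females and males, and none of the 7 members was among them. Pemt came nearest by unadjusted p, with a log2 difference of 0.24 in favour of females (SE 0.11, edgeR adjusted p = 0.142). Lpcat3 differed by 0.013 (SE 0.13, edgeR adjusted p = 0.961) and Mboat7 by -0.057 (SE 0.069, edgeR adjusted p = 0.611). Lpcat1 differed by -0.42 (SE 0.26, edgeR adjusted p = 0.284), Lpcat2 by 0.20 (SE 0.25, adjusted p = 0.630) and Lpcat4 by -0.30 (SE 0.22, adjusted p = 0.375). Without control male 3, Lpcat1 differed by -0.22 and Lpcat4 by -0.090. Lpcat2 differed by 0.50 without control male 1 and by 0.0555 without control male 6. These comparisons share control samples with those between genotypes.

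Other genes of phospholipid metabolism were read from 7 lists of the pathways around the members. For comparison, 51.1% of all genes tested were higher in LKO females and 52.1% in LKO males. In the acylation of glycerol phosphate and lysophosphatidic acid, which starts phospholipid and triglyceride synthesis, 1 of 11 tested genes rose in females and none passed in males. That gene was Gpat3, a glycerol-3-phosphate acyltransferase of the endoplasmic reticulum. Its mean level was 14.7 CPM in control and 28.1 CPM in LKO females, a log2 difference of 0.93 (SE 0.16, edgeR adjusted p = 0.0125). In males it was 0.12 (SE 0.32, adjusted p = 0.926). Of the 11 genes, 9 were higher and 2 lower in LKO females (median log2 difference 0.077), and 5 were higher and 6 lower in LKO males (median -0.024). Lpgat1, which acylates lysophosphatidylglycerol, differed by 0.46 in females without passing (SE 0.13, edgeR adjusted p = 0.0986), and Agpat1 by 0.33 (SE 0.11, adjusted p = 0.166).

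No gene of the other 6 lists passed in either sex. In the ether lipid and plasmalogen list, 5 of 9 tested genes were higher in LKO females and 3 of 9 in LKO males, with medians of 0.027 and -0.028. Peds1, the desaturase that makes the vinyl ether bond of plasmalogens, differed by 0.34 in females (SE 0.12, edgeR adjusted p = 0.190) and by -0.10 in males (SE 0.12, adjusted p = 0.781). Dhrs7b, which reduces the ether lipid precursor, differed by 0.23 (adjusted p = 0.290) and -0.15 (adjusted p = 0.702), and Far2 by 0.44 (adjusted p = 0.469) and 0.80 (adjusted p = 0.468).

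Among phospholipases A and lysophospholipases, 18 of 21 genes were tested in each sex, and 10 were higher and 8 lower in both females and males. The medians were 0.059 and 0.025. Pla1a, a phosphatidylserine phospholipase, differed by -0.41 in females (SE 0.14, edgeR adjusted p = 0.15) and -0.30 in males (SE 0.16, adjusted p = 0.457). Pla2g12b, which bears on lipoprotein lipidation, differed by -0.12 (adjusted p = 0.640) and -0.31 (adjusted p = 0.274). Lypla2, a lysophospholipase that also removes palmitoyl groups from proteins, differed by -0.096 (adjusted p = 0.670) and -0.28 (adjusted p = 0.279).

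The routes beside Pemt were read from 2 lists. Of the genes of CDP-choline and CDP-ethanolamine synthesis, 5 of 9 were higher in LKO in each sex, with medians of 0.046 in females and 0.0099 in males. Etnk2, an ethanolamine kinase of liver, differed by -0.33 in females (SE 0.12, edgeR adjusted p = 0.200) and 0.0099 in males (adjusted p = 0.984). Pcyt1a, the rate-limiting enzyme of the choline route, differed by 0.075 in females (adjusted p = 0.855) and 0.43 in males (SE 0.14, adjusted p = 0.274), and Chpt1 by 0.24 (adjusted p = 0.380) and 0.18 (adjusted p = 0.509). Of the methyl donor genes, 2 of 10 were higher in LKO females and 7 of 10 in LKO males, with medians of -0.11 and 0.14. Gnmt, which consumes S-adenosylmethionine as Pemt does, differed by -0.52 in females (SE 0.19, edgeR adjusted p = 0.188) and -0.18 in males (adjusted p = 0.791). Mat2a, which makes S-adenosylmethionine, differed by -0.068 in females (adjusted p = 0.881) and -0.26 in males (adjusted p = 0.378).

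In the list of phosphatidylserine, phosphatidylinositol and cardiolipin synthesis, 7 of 11 tested genes were higher in LKO females and 6 of 10 in LKO males, with medians of 0.034 and 0.021. Tafazzin, which remodels cardiolipin, differed by -0.24 in females (SE 0.072, edgeR adjusted p = 0.114) and 0.080 in males (adjusted p = 0.711). Cds2, which makes CDP-diacylglycerol, differed by -0.20 in females (adjusted p = 0.301) and 0.13 in males (adjusted p = 0.605). Its paralog Cds1 was tested in females only and differed by -0.59 (SE 0.32, adjusted p = 0.399). Of 13 LXR targets, a list that holds Lpcat3 itself, 6 were higher in LKO females and 9 in LKO males, with medians of -0.093 and 0.12. Scd1, the stearoyl-CoA desaturase, differed by -0.67 in females (SE 0.28, edgeR adjusted p = 0.257) and 0.16 in males (adjusted p = 0.821). Abcg8, which exports sterols into bile, differed by -0.43 (adjusted p = 0.322) and 0.16 (adjusted p = 0.825), and Arl4c by 0.45 (adjusted p = 0.217) and 0.22 (adjusted p = 0.721).

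**Figure D4:**
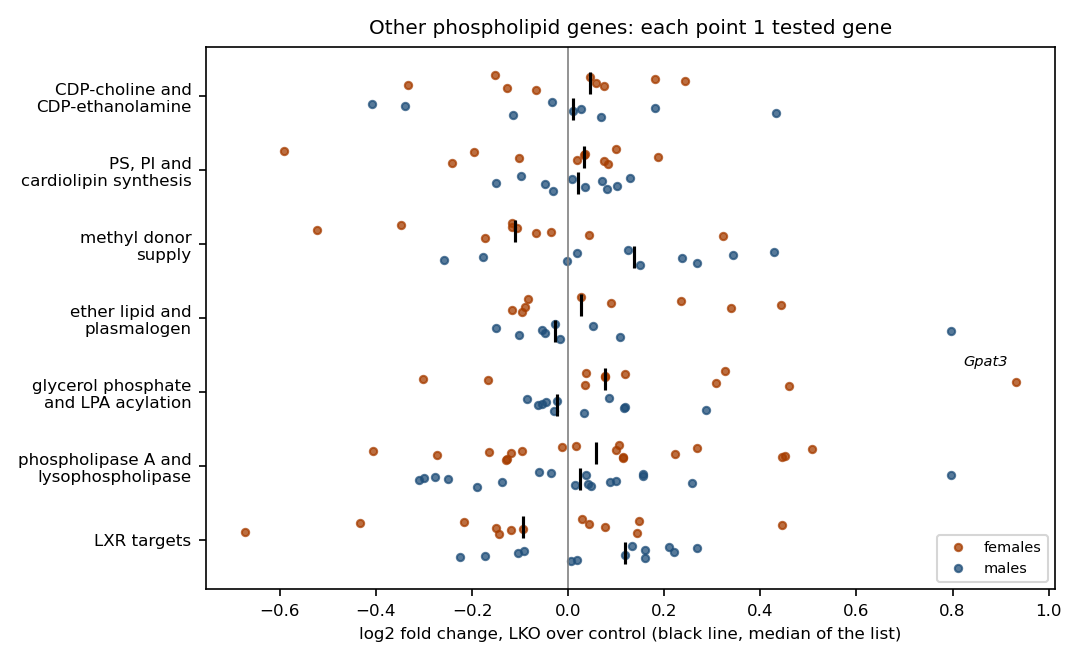
Log2 fold change of LKO over control for the tested genes of 7 lists around the members, females above males in each list, with the list median as a black line. Gpat3 in females (0.93) is the only gene that passed the test, and the medians lie between -0.11 and 0.14.

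Markers of other liver cells were measured beside the members, because in bulk tissue fewer cells of a type and less RNA per cell cannot be told apart. Of 10 markers of lipid-associated macrophages, 4 rose in LKO females, where Tmem86a was higher: Gpnmb (log2 difference 3.22, edgeR adjusted p = 0.00256), Mmp12 (2.50), Trem2 (1.32) and Spp1 (0.66). Over the whole list, 7 of 10 were higher and 3 lower in LKO females, where 51.1% of all genes tested were higher. The lower ones, none of which passed, were Fabp5 (-1.08, edgeR adjusted p = 0.296), Atp6v0d2 (-0.49, adjusted p = 0.269) and Cd9 (-0.029, adjusted p = 0.961). None passed in males, where 7 of 10 were higher. The summed level of this list was 455 to 701 CPM in control females and 512 to 613 CPM in LKO females, so the sums overlapped. In males it was 445 to 849 CPM in controls and 438 to 889 CPM in LKO. Of 14 macrophage and Kupffer cell markers, only Cd74 passed, in females (0.82, edgeR adjusted p = 0.0146), and 8 were higher in LKO females and 12 in LKO males. Their sum was 1123 to 2000 CPM in control females, 1551 to 2085 CPM in LKO females, 847 to 1807 CPM in control males and 1158 to 2060 CPM in LKO males. No marker of these lists was at 0 in every library. The part of these cells in the level of Tmem86a or Lpcat2 was not tested.

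The other marker lists held no gene that passed. Beside their counts, 51.1% of all genes tested were higher in LKO females and 52.1% in LKO males. Of the hepatocyte markers, 7 of 8 were lower in LKO females and 6 of 8 in LKO males, with medians of -0.25 and -0.21, beside the lower means of Pemt in LKO livers of both sexes. Their sum was 86468 to 104687 CPM in control females, 60964 to 97036 CPM in LKO females, 59180 to 88529 CPM in control males and 54830 to 78227 CPM in LKO males. Its part in the values of Pemt was not tested. All 9 stellate cell and fibroblast markers were higher in LKO females (median 0.49) and 6 of 9 in LKO males (median 0.087). Endothelial markers were lower for 7 of 8 in LKO females (median -0.24) and 1 of 8 in LKO males (median 0.13). Of the tested cholangiocyte markers, 5 of 5 were higher in LKO females and 1 of 5 in LKO males. Of the T, B and NK cell markers it was 6 of 6 and 5 of 7, and of the neutrophil markers 2 of 2 and 0 of 2.

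How the members varied among livers of 1 group was read after taking each liver relative to its group mean on the log2 CPM scale. Over 28 pairs of the 8 members that passed the filter and 23 livers, no correlation passed a permutation test within groups after Benjamini-Hochberg adjustment. Tmem86a and Lpcat3 had r = 0.67 (permutation p = 0.0051, adjusted p = 0.0538) and rho = 0.51 (adjusted p = 0.135), and r was 0.40 without the 2 livers farthest from the median of Tmem86a. Within sexes r was 0.19 in females and 0.82 in males, and the difference between the sexes was not tested. Tmem86a and Lpcat2 had r = 0.65 (permutation p = 0.0104, adjusted p = 0.0582) and rho = 0.67 (adjusted p = 0.0547), with r = 0.61 without the farthest 2, 0.28 in females and 0.76 in males.

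Tmem86b and Lpcat1 had r = -0.63 (permutation p = 0.00533, adjusted p = 0.0538) and rho = -0.60 (adjusted p = 0.0710), with r = -0.61 without the farthest 2, -0.18 in females and -0.88 in males. Lpcat1 and Lpcat3 had r = 0.64 (permutation p = 0.00608, adjusted p = 0.0538) and rho = 0.66 (adjusted p = 0.0547), with r = 0.64 without the farthest 2, 0.30 in females and 0.79 in males. Tmem86b and Pemt had r = 0.61 (permutation p = 0.00768, adjusted p = 0.0538) and rho = 0.50 (adjusted p = 0.131), with r = 0.40 without the farthest 2, 0.51 in females and 0.67 in males. Tmem86a and Tmem86b had r = -0.51 (permutation p = 0.0429, adjusted p = 0.181) and rho = -0.35 (adjusted p = 0.281), with r = -0.31 without the farthest 2, 0.11 in females and -0.75 in males. Mboat7 was close to 0 with Tmem86b (r = 0.0027) and with Lpcat3 (r = 0.043).

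**Figure D5:**
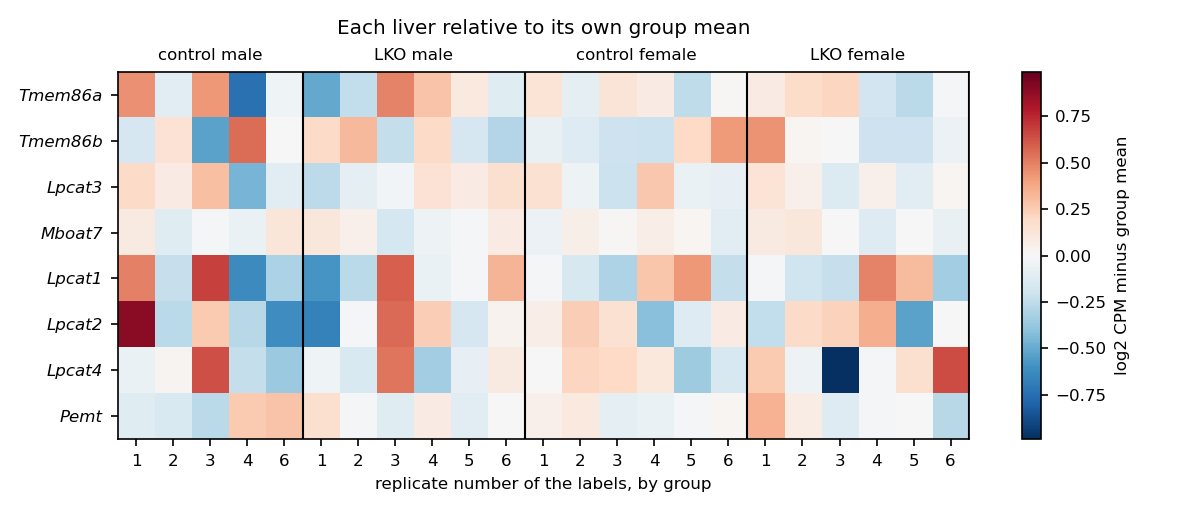
Log2 CPM of 8 members in each of 23 livers relative to the mean of its own group, with red above and blue below the mean, and the label's number under each column. Control male 4 is low for Tmem86a, Lpcat1 and Lpcat3 and high for Tmem86b and Pemt. The row of Mboat7 is nearly blank.

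The genes most like Tmem86a over the 23 livers, again relative to group means, were sought among 10133 protein-coding genes that averaged 50 counts or more. They were Rtn4, a reticulon that shapes the endoplasmic reticulum (r = 0.90, rho = 0.78), Limk1, a kinase of the actin cytoskeleton (r = 0.89, rho = 0.81), and Psap, the precursor of the lysosomal saposins (r = 0.88, rho = 0.77). Gpx4, which reduces phospholipid hydroperoxides (r = 0.88, rho = 0.77), and S100a11, a calcium-binding protein (r = 0.88, rho = 0.71), completed the 5. Without control male 4 and LKO male 1, the livers farthest from the median, r was 0.82, 0.80, 0.79, 0.76 and 0.77 in that order. For Psap r was 0.40 in females and 0.96 in males, and for Rtn4 it was 0.73 and 0.93. The 5 were chosen for their likeness, so these values have no test. By genotype, S100a11 rose in LKO females (log2 difference 0.90, SE 0.14, edgeR adjusted p = 0.00576), as did Gpx4 (0.49, SE 0.091, adjusted p = 0.0156). The other 3 did not pass in females, and none of the 5 passed in males.

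In the tables, whose positions follow mm39, Tmem86a (ENSMUSG00000010307) lies on chromosome 7 from 46700349 to 46704525 on the plus strand, and Tmem86b (ENSMUSG00000045282) on chromosome 7 from 4631039 to 4634421 on the minus strand. Tmem86b overlaps the lncRNA Gm44877 by 2505 bases on the opposite strand, and that gene had at most 0.588 CPM. Mboat7 (ENSMUSG00000035596) lies on the same chromosome from 3680788 to 3696522 on the minus strand. Lpcat3 (ENSMUSG00000004270) lies on chromosome 6 from 124639990 to 124681381 and Lpcat4 (ENSMUSG00000027134) on chromosome 2 from 112069813 to 112077456, both on the plus strand. Lpcat1 (ENSMUSG00000021608) lies on chromosome 13 from 73615316 to 73664541 and Lpcat2 (ENSMUSG00000033192) on chromosome 8 from 93581967 to 93645907, both on the plus strand. Pemt (ENSMUSG00000000301) lies on chromosome 11 from 59861440 to 59937315 on the minus strand. Mboat1 (ENSMUSG00000038732) lies on chromosome 13 from 30320472 to 30430700 and Mboat2 (ENSMUSG00000020646) on chromosome 12 from 24880878 to 25014396, both on the plus strand. All 10 are annotated as protein coding, and the counts cover whole genes.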

How the data were processed

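Counts, normalized counts, FPKM and the authors' log2 fold changes with p-values were deposited in 1 table per sex, for 24940 genes in females and 24434 in males. Poly-T beads selected the RNA, per the labels' protocols, and libraries were made with random hexamers and dUTP. The authors aligned the reads with HISAT2 2.0.5 to mm39, per the submitters' processing notes; the counter and annotation are not given in the sources used here. The deposited normalized signal is the count divided by 1 constant per library, and was used only to check the columns. FPKM values are the authors' and were used for levels between genes and in alternatives. The authors' deposited log2 fold changes and p-values were not used in any test.

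From the deposited counts, each sex was tested alone with edgeR 4.0.16 (limma 3.58.1, R 4.3.3): filterByExpr, TMM factors, the quasi-likelihood test, and Benjamini-Hochberg adjustment over all genes tested, with a call at an adjusted p under 0.05. The interaction was fitted on all 23 libraries over genes in both tables, and the sex comparison on the 11 controls. CPM values use TMM factors of all 23 libraries. Standard errors and 95% intervals come from the same fit. No genotype or sex difference of Tmem86a was tested, only its correlation with other members within groups. The test was also run on simulated counts with known changes. These counts had independent libraries and the spread that edgeR estimated, so the check does not cover outlying or paired livers.

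Pairs of members were compared with 100000 permutations of livers within groups, 2-sided, on log2 CPM with a prior count of 2. Named genes are all members, Cpt1a, up to 3 tested genes per list with the lowest p in either sex, and the 5 protein-coding genes most like Tmem86a. The rule also selected 1 gene that is not reported here. Spp1, Fabp5, Atp6v0d2, Cd9 and Ctsd, outside this rule, were named after their values were seen. The members, the 7 pathway lists and the 8 marker lists were chosen with earlier results of these data known. The symbols of 2 genes were matched by alias (Peds1 and Tafazzin), and Pla2g2a was not analysed here. Promoters are from RefSeq (GRCm38.p6), searched on both strands. Motif matches of different names may overlap. Replicates are numbered livers of 1 group; p-values cover the spread between them. Other settings tried were RLE size factors, unscaled library sizes, no filter or at least 10 counts in every library, DESeq2 1.42.0, limma-trend on FPKM (log2 with 1 or 0.1 added) for genes with a mean FPKM of at least 0.5, all 23 libraries in 1 fit, a replicate block, and leaving out each library in turn.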

Additional observations from a re-analysis of the deposited data

Results flagged for a closer look

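Each of the 8 members that passed the filter was examined in each of the 4 groups, 32 sets of values in all, for a liver far from the rest by Dixon's test. LKO female 1 stood out for Tmem86b, with 104.36 CPM against 66.653 to 77.79 CPM in the other 5 LKO females. Its gap to the nearest liver was 0.7047 of the range of the group, above the 95% critical value of the test for 6 livers. Chance gives about 1 such value in 20 sets. Without this liver the log2 difference of Tmem86b in females was -0.47 (edgeR adjusted p = 0.0632), and that of Pemt, for which the same liver was the highest, was -0.26 (edgeR adjusted p = 0.111).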

How the results depend on the processing

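None of the 7 members tested by genotype was called in females under any of 21 alternatives or in males under any of 20. Among the male alternatives, DESeq2 gave no adjusted p for Lpcat1, Lpcat2 and Lpcat4, which counts here as not called. The untested Tmem86a value ran from 0.86 to 0.96 in females and from 0.017 to 0.28 in males, where its SE was 0.22. The female alternatives reuse the libraries from which Tmem86a was picked, so they lend its rise no support. In females, 194 genes were called, against 559 with DESeq2, 119 with limma-trend on log2(FPKM + 1), 119 on log2(FPKM + 0.1), 94 with all 23 libraries in 1 fit, and 87 to 233 when 1 library was left out. The count fell by over 1.5 times without control female 1, 5 or 6 or LKO female 2, 3 or 4. In males, 1 gene was called, against 112 with DESeq2, 3 with at least 10 counts in every library, 2 with library size alone, 2 with no filter, 5 with all 23 libraries in 1 fit, and 1 to 2 when 1 library was left out, with 2 without control male 1. The interaction gave 0 genes, against 96 with DESeq2 and 0 to 17 when 1 library was left out, with 17 without control male 4. The cause of these shifts was not tested.

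Whether the replicate numbers of the labels pair livers is not stated. Deviations from the group means of same-numbered livers correlated at over 0.1 in 4 of 6 female pairs (-0.0028 to 0.14). In males 1 of 5 pairs did (-0.30 to 0.38). Control females 1, 3, 4 and 6 each correlated most with the LKO female of their own number. Control females 2 and 5 did not, and among males only control male 3 did. Female pairs of unlike number ran from -0.15 to 0.19. Whether livers of the same number are paired or share a batch was not tested, and the main fits take all livers as independent. With a replicate block, 334 genes were called in females, against 194 without it, and 2 in males, against 1. Between the control sexes 991 were called, against 2465 without the block. The call of no member changed.

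Differences near 0 changed sign. Lpcat4 in females went from -0.0056 to 0.030 with library size alone, to 0.0028 with at least 10 counts, and to between -0.16 and 0.14 when 1 library was left out. Mboat7 in females was 0.030 with library size alone and -0.030 to 0.015 with 1 library left out. With 1 library left out, Lpcat1 in males ranged from -0.12 to 0.23 and the Lpcat2 interaction from -0.37 to 0.070. Lpcat3 between control sexes was -0.034 with library size alone and -0.087 to 0.085 with 1 library left out. Of the members that passed the filter, Lpcat1, Lpcat2 and Lpcat4 had the fewest counts, 13 to 143 per library.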
